A study of Mus musculus with 2 samples.

Results

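Neutrophils of the dorsal root ganglion (DRG) were examined for the transcripts of 10 granule proteins: Elane, Prtn3, Mpo, Fcnb, Camp, Ngp, Ltf, Lcn2, Mmp8 and Mmp9. The 10 genes were listed by name and are all present among the 16819 gene symbols of the count matrix. They were followed in the 579 of 2668 CD45+ cells in which S100a8 and S100a9, the calprotectin subunits that mark neutrophils, together made up 1% or more of the transcript counts. The cells came from 3 male WT BALB/cAnNRj mice that were naive, perfused with ice-cold PBS and sorted for CD45 and against DAPI. Cells of 3 female mice of the same strain were run in the same single lane of the 10× 3′ assay, and hashtag antibodies told the 6 animals apart. DRGs of several spinal levels were pooled within each mouse, so spinal level cannot be told apart, and the counts do not show whether a sorted cell lay within the ganglion or in tissue dissected with it. No mouse was treated, and the comparisons below are therefore between classes of cells and between the sexes.

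A neutrophil fills its granules in sequence while it matures, and each granule holds the proteins that were being made when it formed. Primary (azurophil) granules receive the serine proteases and myeloperoxidase in promyelocytes, secondary (specific) granules receive antimicrobial and iron-binding proteins in myelocytes and metamyelocytes, and tertiary (gelatinase) granules are filled last. Division ends at about the myelocyte stage, and this program is known from the bone marrow, whereas the circulating neutrophil has largely stopped making granule proteins.

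The promoters of 4 members that stand at the start and in the middle of this order are shown because the neighboring protease genes Elane and Prtn3 were detected together, as described below, while Fcnb and Ngp mark the next steps. Each sequence is the 250 bases before the RefSeq start of the gene in GRCm38.p6, written 5′ to 3′ on the strand of the gene. Capitals mark GAGGAAG, the letters of a PU.1-type site, in Elane (chr10:79886062-79886311, plus strand) and Prtn3 (chr10:79879417-79879666, plus strand). In Fcnb (chr2:28084879-28085128, minus strand) and Ngp (chr9:110419558-110419807, plus strand) they mark TTGCNNAA, the letters of a C/EBP-type site.
Elane: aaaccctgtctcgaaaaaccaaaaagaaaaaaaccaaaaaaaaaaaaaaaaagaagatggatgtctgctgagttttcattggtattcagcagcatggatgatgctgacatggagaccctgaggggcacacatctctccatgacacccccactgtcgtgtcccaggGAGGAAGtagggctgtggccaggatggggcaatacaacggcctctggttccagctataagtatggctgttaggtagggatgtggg
Prtn3: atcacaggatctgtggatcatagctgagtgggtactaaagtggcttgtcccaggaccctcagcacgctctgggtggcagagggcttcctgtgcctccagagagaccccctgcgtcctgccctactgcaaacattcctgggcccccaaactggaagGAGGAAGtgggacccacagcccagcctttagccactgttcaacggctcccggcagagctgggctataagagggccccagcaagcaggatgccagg
Fcnb: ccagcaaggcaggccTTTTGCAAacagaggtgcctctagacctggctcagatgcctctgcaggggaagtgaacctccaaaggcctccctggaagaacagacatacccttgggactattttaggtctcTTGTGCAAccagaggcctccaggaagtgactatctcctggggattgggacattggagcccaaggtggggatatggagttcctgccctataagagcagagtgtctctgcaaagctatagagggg
Ngp: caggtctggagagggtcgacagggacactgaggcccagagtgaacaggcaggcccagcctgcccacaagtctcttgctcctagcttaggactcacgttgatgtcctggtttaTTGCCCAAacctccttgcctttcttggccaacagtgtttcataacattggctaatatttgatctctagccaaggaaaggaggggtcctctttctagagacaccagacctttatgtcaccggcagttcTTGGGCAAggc

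The table of promoters matched 9 of the 10 members (Mmp9 was not matched). On either strand, GAGGAAG occurred in 5 of these 9, namely Elane, Prtn3, Mpo, Lcn2 and Mmp8, and in 10.6% of all 32851 promoters of the same length. TTGCNNAA occurred in 5 of 9 as well, namely Fcnb, Ngp, Ltf, Lcn2 and Mmp8, and in 9.56% of all promoters. Camp held neither motif, and only Lcn2 and Mmp8 held both. The matches began 85 bases before the start in Elane and 95 in Prtn3, 235 and 123 in Fcnb, and 138 and 11 in Ngp. Shorter or looser letters were more common in all promoters (23.3% for GAGGAA, 36.8% for TTNNGNAA), and they were found in 6 and 5 of the 9 members. The letters were chosen after the windows had been seen, so the counts are a description of these windows and not evidence of binding.

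In the genome (GRCm38, GENCODE M21), Elane (chr10:79886247-79888215) lies 3072 bases from Prtn3 (chr10:79874476-79883174), both on the plus strand. Camp (chr9:109847379-109849617), Ngp (chr9:110419747-110423012) and Ltf (chr9:111019271-111042767) follow each other on chromosome 9 with gaps of 570129 and 596258 bases, and Mmp8 (chr9:7558456-7568485) lies far from them on the same chromosome. Fcnb (chr2:28076378-28084885), Lcn2 (chr2:32384633-32388252) and Mmp9 (chr2:164940780-164955850) are on chromosome 2, and Mpo (chr11:87793581-87804413) is on chromosome 11. The starts of these spans differ from the RefSeq starts used for the promoter windows shown above. The Prtn3 window thus lies inside the span given here, and the windows of Elane, Fcnb and Ngp partly overlap theirs.

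The 579 neutrophils comprised 139 of 481, 98 of 772 and 342 of 1415 cells in male mouse 1, 2 and 3, and held 4964851 UMIs (unique molecular identifiers, which count captured transcripts). Few cells lay near the cutoff, with 10 cells at 0.5 to 1% and 6 at 1 to 2% of UMIs in S100a8 and S100a9, against 461 at 20% or more. In the 1073 cells of the female mice, 136 were neutrophils. The hashtag step had removed mixed barcodes, and a doublet score marked another 12 of the 2668 cells (0.450%), of which 5 were neutrophils.

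To order the granule transcripts, the neutrophils were divided into 3 classes by the members themselves. A cell with 3 or more UMIs of Elane, Prtn3 and Mpo in sum was called a primary-granule neutrophil, another cell with 0.5% or more of its UMIs in Camp, Ngp and Ltf a secondary-granule neutrophil, and a cell with neither a remaining neutrophil. Levels are given as CPM, the UMIs of a gene over all UMIs of the same cells scaled to a total of 1e+06 UMIs. The classes held 21, 291 and 267 cells of the male mice, and 6, 77 and 53 of the female mice. Each class came from every mouse, with 5, 4 and 12 primary-granule, 73, 47 and 171 secondary-granule and 61, 47 and 159 remaining cells in male mouse 1, 2 and 3. Of neutrophils, 3.73% ± 0.308 (SD, n = 3 male mice) were in the primary-granule class, 50.2% ± 2.28 in the secondary-granule class and 46.1% ± 2.06 in the remaining class. Cell depth stepped down over the classes, from a median of 19884 UMIs per cell to 10840 and 3204. The first cutoff is a count of UMIs, which a deeper cell reaches more easily, and its part in this step was not tested. In the primary-granule class, the 10 cells with fewer than 20 such UMIs had a median of 20486 UMIs in all, and the 11 others 17196. Just outside the first cutoff lay 5 cells with 2 UMIs and just inside it 5 cells with 3 to 5 UMIs. Around the second cutoff, 36 cells had 0.2 to 0.5% and 23 had 0.5 to 1%, whereas 197 had 5% or more.

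Markers of neutrophils that no cutoff used (Csf3r, Ly6g, Cxcr2 and Retnlg) summed to 15553 CPM in secondary-granule and 29130 CPM in remaining cells, against 80.3 CPM in macrophages. In primary-granule cells they summed to 721 CPM (93.5 to 860 over the mice), with Cxcr2 in 1 of 21 cells, so these cells held few transcripts of mature neutrophils. A list of 5 monocyte markers stood at 1985 CPM in primary-granule, 612 in secondary-granule and 510 in remaining cells. A list of 7 macrophage markers stood at 102, 160 and 1288 CPM in the same classes (363 to 1716 over the mice in the remaining class). In the remaining class, 8 cells reached the cutoff in C1qa, C1qb and C1qc that defines macrophages here (0.2% of UMIs). The tests between classes were repeated without such cells, as given at the end, but the part of macrophage RNA in the levels of the remaining class was not tested.

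**Figure D1:**
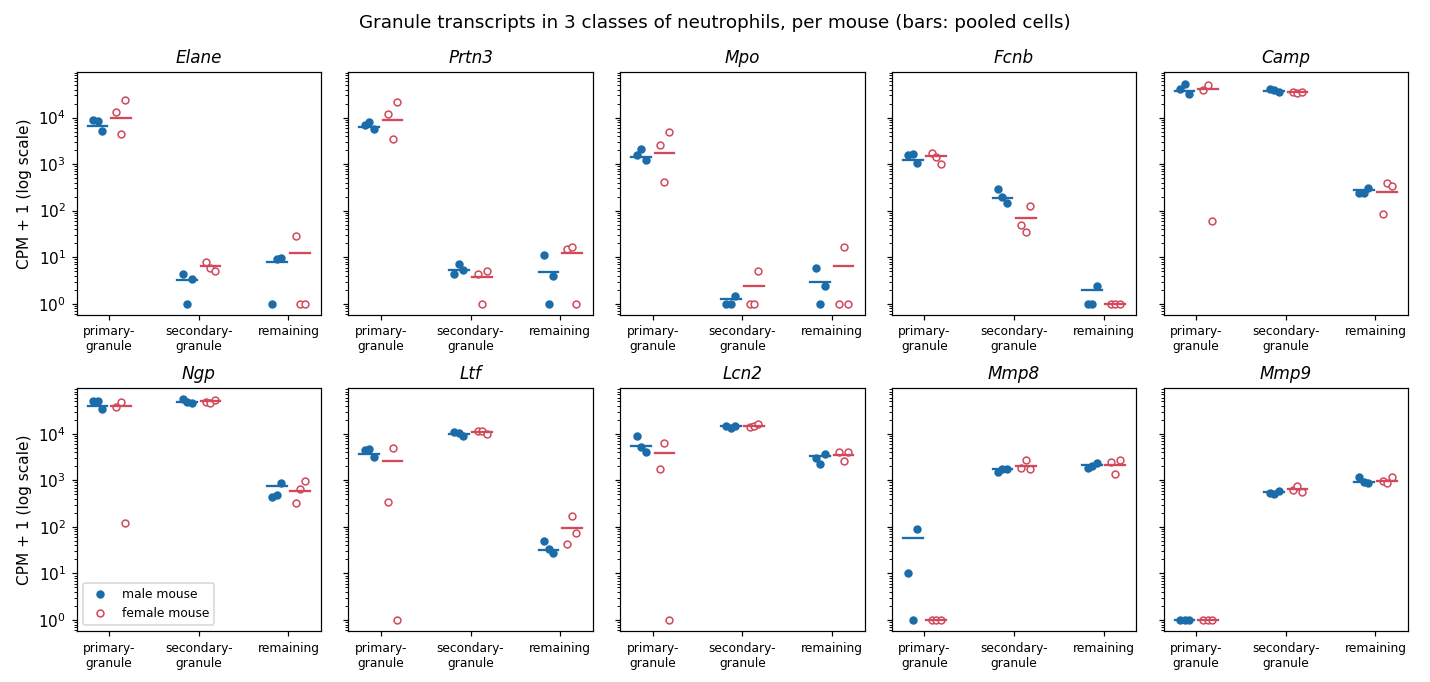
CPM plus 1 (log scale) of each of the 10 granule genes in primary-granule, secondary-granule and remaining neutrophils; points are mice (male filled, female open) and bars are the pooled cells of a sex. Elane, Prtn3 and Mpo are at 1416 CPM or more in pooled primary-granule cells of the male mice and under 7 CPM in the other classes, while Mmp8 and Mmp9 have the opposite layout.

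Elane (neutrophil elastase) and Prtn3 (proteinase 3), serine proteases of the primary granule, were carried by a very small number of cells. Over all neutrophils, Elane stood at 780, 688 and 440 CPM in male mouse 1, 2 and 3, and Prtn3 at 629, 651 and 489 CPM. The mice thus lay within a factor of 1.78 of each other for Elane and 1.33 for Prtn3. Yet Elane was detected in 33 of 579 neutrophils and Prtn3 in 37, and the 21 primary-granule cells held nearly all of their UMIs, since the pooled level was 6507 CPM for Elane in that class, 2.27 in secondary-granule cells and 6.86 in remaining cells. For Prtn3 these levels were 6369, 4.26 and 3.92 CPM. Outside the class that these genes define, Elane had at most 1 UMI in any neutrophil. Elane was found in 2.75% of secondary-granule and 2.62% of remaining cells, against 1.23% of B cells, 2.06% of T cells and 1.41% of macrophages. Among the 74 secondary-granule cells with a UMI of Fcnb (median 18762 UMIs), however, Elane was found in 6.76% and Prtn3 in 13.5%. Prtn3 was found in 1.84% of B cells, 2.06% of T cells and 2.41% of macrophages. The part of free RNA in these shares was not tested.

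Mpo (myeloperoxidase, which makes hypochlorous acid from chloride) was found in fewer cells than either protease. It stood at 137, 172 and 103 CPM over all neutrophils of male mouse 1, 2 and 3, was detected in 14 cells, and in the primary-granule class reached 1546, 2131 and 1216 CPM. A UMI of Mpo was present in 11 of the 21 primary-granule cells, 1 of 291 secondary-granule cells and 2 of 267 remaining cells. Within the primary-granule class, 11 cells with 20 or more UMIs of the 3 genes held 98.9% of these UMIs, and the single highest cell held 16.2%. Mpo was detected in 10 of these 11 cells and in 1 of the 10 cells with fewer UMIs.

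The primary-granule cells themselves fell into 2 sets by Camp, a gene that the class did not use, with no cell between 274 and 35764 CPM. The boundary of 1000 CPM used here was set after the values had been seen. In the 10 cells under 1000 CPM, the sum of Elane, Prtn3 and Mpo had a median of 488 UMIs per cell (range 6 to 975), Ltf was detected in 1 cell, and Lcn2 stayed at or under 219 CPM. In the 11 cells above it the same sum had a median of 6 UMIs (range 3 to 669), Ltf was detected in 9 cells, and Lcn2 had a median of 9228 CPM. Elane had a median of 20341 CPM in the first set and 47.5 CPM in the second, and 3 cells had high Camp together with 20 or more primary UMIs. S100a8 and S100a9 made up 1.44 to 6.55% of UMIs in the first set and 23.0 to 40.4% in the second. Both sets included cells of each male mouse (2, 2 and 6 cells against 3, 2 and 6).

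Neither set had a UMI of Mmp9. Mmp8 was detected in 4 Camp-low cells (61.7 CPM over the set) and 2 Camp-high cells (53.9 CPM), against 6.33 CPM in B cells. Fcnb was detected in all 21 cells, with a median of 535 CPM in the Camp-low cells and 1474 CPM in the Camp-high cells. Cebpe, a transcription factor of the secondary-granule program, was also present in all 21. Ly6g, a surface marker of neutrophils, was detected in 0 of 10 Camp-low cells and 8 of 11 Camp-high cells. Ly6c2 and Irf8, which are high in monocyte progenitors, were detected in 10 and 5 of the 10 Camp-low cells and in 9 and 0 of the 11 Camp-high cells. These genes were named after their values had been seen. The part of other cell types in the Camp-low set was not tested.

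Fcnb (ficolin B, a lectin kept in granules) spanned the primary-granule cells and some of the secondary-granule cells. Its level in primary-granule cells was 1565, 1682 and 1036 CPM in male mouse 1, 2 and 3, in secondary-granule cells 285, 195 and 144 CPM, and in the remaining class 1 UMI was found in 267 cells. These levels are a description, and the test of Fcnb between classes is given below beside the share of all genes that passed it. Fcnb was detected in 74 of 291 secondary-granule cells, and it was not counted in B cells (0 of 163 cells, which allows a share of up to 1.84%).

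Camp (the cathelicidin precursor), Ngp (neutrophilic granule protein) and Ltf (lactoferrin, which binds iron) held most of the granule UMIs. Together with Lcn2 they made up 11.3% ± 0.951 (SD, n = 3 mice) of the UMIs of secondary-granule cells, 9.69% ± 2.07 of those of primary-granule cells and 0.385% ± 0.0896 of those of remaining cells. Camp stood at 41808, 52844 and 32322 CPM in primary-granule cells of male mouse 1, 2 and 3 and at 42009, 38718 and 34859 CPM in secondary-granule cells, with overlapping ranges. Ngp overlapped as well, at 49669, 49405 and 33913 CPM in primary-granule and 55450, 47905 and 45554 CPM in secondary-granule cells. Ltf, in contrast, was lower in the primary-granule class (4507, 4654 and 3117 CPM) than in the secondary-granule class (11010.5, 10285 and 9077 CPM) in each mouse. The primary-granule levels average 2 unlike sets, with Camp at 274 CPM or less in Camp-low and 35764 CPM or more in Camp-high cells. Ngp stood at 346 and 64505 CPM and Ltf at 12.3 and 5940 CPM in these sets. Camp, Ngp and Ltf define the secondary-granule class, so no test was made of them.

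In the remaining neutrophils, Camp, Ngp and Ltf were read against free RNA, the transcripts of broken cells that enter every droplet, and Ltf was near that level while Camp and Ngp were above it in CPM. Camp was at 281 CPM in these cells and at 83.6 CPM in B cells, and it was detected in 39.0% of remaining cells, 32.5% of B cells, 39.2% of T cells and 41.2% of macrophages. The shares for Ltf were 8.99%, 9.82%, 10.3% and 11.9% in the same order. Median depths were 3204 UMIs in remaining, 3410 in B, 4684 in T and 8619 in macrophage cells. Thinned to 1000 UMIs per cell, Camp was detected in 13.6% of remaining cells, 9.26% of B cells and 14.4% of T cells. Ngp was detected in 29.5%, 14.2% and 19.6% in the same order. By detection at this depth, Camp in remaining cells thus lay between B and T cells. The level of Ngp in remaining cells was 6.39 times that in B cells, that of Camp 3.36 times and that of Ltf 1.55 times. The cutoff itself keeps a remaining cell under 0.5% for these genes. Of the remaining cells, 36 had 0.2 to 0.5% of their UMIs in the 3 genes and 79 had 0 UMIs of them.

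Lcn2 (lipocalin 2, which binds siderophores) was seen beyond the cells with the other secondary-granule transcripts. It stood at 9089, 5327 and 4042 CPM in primary-granule cells of male mouse 1, 2 and 3, at 14499, 13490 and 14829 CPM in secondary-granule cells and at 3004, 2257 and 3596 CPM in remaining cells. It was thus highest in the secondary-granule class in each mouse. Unlike Camp, Lcn2 was well above free RNA in the remaining class, with a UMI in 81.3% of these cells against 17.8% of B cells, and a level 87.3 times that in B cells.

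Mmp8 (neutrophil collagenase) and Mmp9 (gelatinase B, the defining protein of tertiary granules) had the reverse layout of the primary-granule genes. Mmp8 stood at 9.37, 0 and 88.0 CPM in primary-granule cells, at 1543, 1790 and 1767 CPM in secondary-granule cells and at 1815, 2039 and 2318 CPM in remaining cells of male mouse 1, 2 and 3. Mmp9 had 0 UMIs in the 21 primary-granule cells, which allows a share of cells of up to 14.3%. Its level was 523, 516 and 587 CPM in secondary-granule cells and 1174, 914 and 879 CPM in remaining cells. Taking 3 counts over the primary-granule class as the floor (7.11 CPM), Mmp9 was at least 78.9-fold higher in secondary-granule cells and at least 132-fold higher in remaining cells. Mmp8 was detected in 81.3% and Mmp9 in 88.4% of remaining cells, against 3.07% and 1.23% of B cells.

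**Figure D2:**
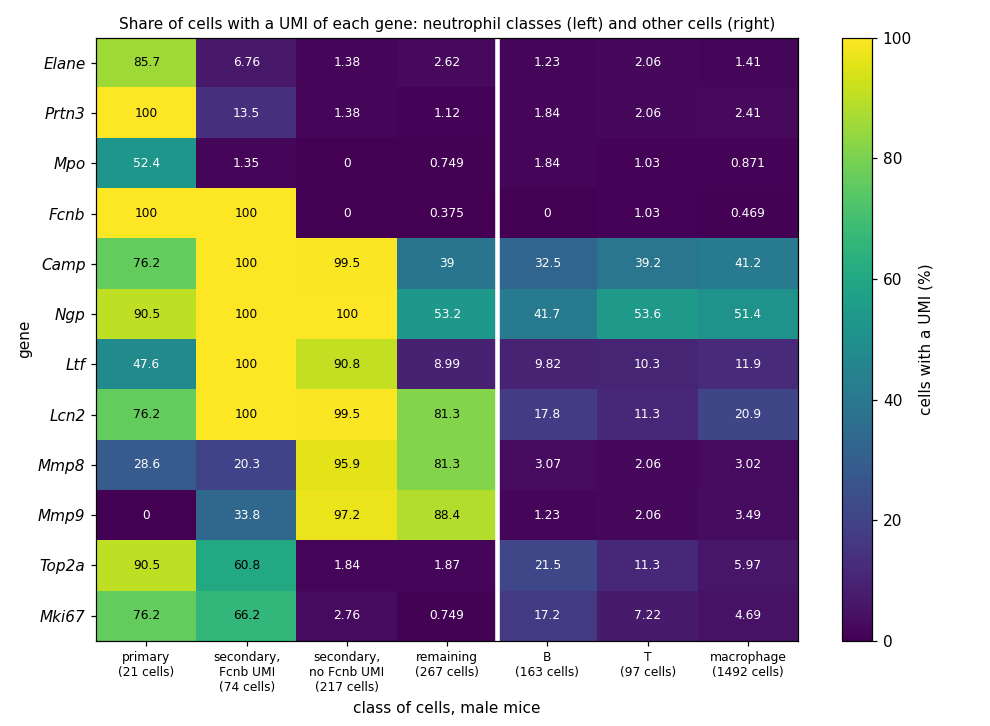
Share of cells (%) with at least 1 UMI of each granule gene, Top2a and Mki67 in primary-granule, secondary-granule (with and without a UMI of Fcnb) and remaining neutrophils, and in B, T and macrophage cells as the level of free RNA, in the male mice. Camp and Ngp are detected in 32.5 to 53.6% of B cells, T cells and macrophages, the primary-granule genes and Mmp8 and Mmp9 in under 4%. The groups differ in depth, which the shares do not correct for. Median UMIs are 19884, 10840 and 3204 in primary-granule, secondary-granule and remaining cells. They are 3410, 4684 and 8619 in B, T and macrophage cells.

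The differences between classes were tested with edgeR's quasi-likelihood test on UMI sums per mouse and class of the male mice, with the 8 class-defining genes left out, so that 4 members (Fcnb, Lcn2, Mmp8 and Mmp9) could be tested. The primary-granule sums were those of mouse 1 and 3, since mouse 2 had 4 such cells, under the minimum of 5. Each sum joins Camp-low and Camp-high cells, so every fold of this class is that of a mixture. Lcn2, for example, stood at 67.9 CPM in the Camp-low and 8858 CPM in the Camp-high cells of the male mice. Between primary-granule and secondary-granule cells, all 4 members passed, where 30.9% of all 4301 genes tested did. Fcnb was higher in primary-granule cells by 2.04 ± 0.25 on the log2 scale (approximate SE taken from the test statistic, adjusted p = 2.63e-06). Lcn2 was lower by a log2 fold of -1.74 ± 0.29 (adjusted p = 0.000517), and Mmp8 by -5.37 ± 0.38 (adjusted p = 3.67e-09). Mmp9, at 0 in the primary-granule cells, was lower and had an adjusted p of 1.59e-10. The classes were cut from granule genes of the same cells and the 4 members are of the same program, so the tests give the size and spread of a difference rather than independent evidence for the order.

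Between secondary-granule and remaining cells, 3 of the 4 members passed, where 45% of all genes did. Fcnb was higher in secondary-granule cells by 7.65 ± 0.57 (adjusted p = 3.58e-10), a fold that rests on 1 UMI in the remaining cells, and Lcn2 by 2.50 ± 0.26 (adjusted p = 3.32e-06). Mmp9 was lower in secondary-granule cells by a log2 fold of -0.62 ± 0.20 (adjusted p = 0.0131), and this call was lost without mouse 1 (-0.40, adjusted p = 0.252), without mouse 2 (-0.64, adjusted p = 0.0708) and in the female mice (-0.17, adjusted p = 0.612). Mmp8 did not pass, with a log2 fold of -0.04 ± 0.23 (adjusted p = 0.904). Since cells of these classes differ greatly in depth and makeup, scaling matters, and the fitted folds lay 0.58 below the log2 ratios of CPM in the first comparison and 0.25 above them in the second. Of the genes called in the first comparison, 42.1% were higher in primary-granule cells, and 56.6% with RLE size factors, under which Fcnb (2.27), Lcn2 (-1.49) and Mmp8 (-5.15) kept their direction and their call. Leaving out mouse 1 or mouse 3 leaves the primary-granule arm with the sum of 1 mouse, which is then assumed to vary like the other groups, and this holds for each such value of this comparison given below. Without mouse 3 the fold of Lcn2 was -1.06 (adjusted p = 1.10e-05), and without mouse 1 it was -2.47 (adjusted p = 7.68e-11).

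Per-cell co-detection was then read without any class. Of the 14 neutrophils with Mpo, 78.6% had Elane, 78.6% had Prtn3 and 85.7% had Fcnb. Among the secondary genes, Ngp was found in 78.6% of these 14 cells, Camp and Lcn2 in 64.3% each and Ltf in 28.6%. Mmp8 was found in 42.9% of them and Mmp9 in 21.4%. Free RNA holds Camp and Ngp too (83.6 and 116 CPM in B cells), and its part in the shares of this paragraph was not tested. Ngp was detected in 8 of the 10 Camp-low primary-granule cells at a median of 65.8 CPM, under its level in B cells. In the Camp-high cells its median was 70206 CPM. Of the 33 cells with Elane, 57.6% also had Prtn3, against 3.30% of cells without Elane. Camp was found in 75.8% of the cells with Elane and 70.5% of those without, Ltf in 45.5% and 53.1%, and Mmp8 in 42.4% and 79.1%. Of the 96 cells with Fcnb, 25.0% had Elane, 93.8% had Camp, 97.9% had Ngp and 87.5% had Ltf, so that Fcnb overlapped with the primary genes in part and with the secondary genes nearly in full. Mmp8 was found in 22.9% of cells with Fcnb and in 87.8% of those without, and Mmp9 in 27.1% and 92.3%. Mmp8 and Mmp9 went together (93.7% of cells with Mmp8 had Mmp9), while detection of Mmp8 was the same in cells with Camp (77.1%) and without it (76.9%).

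Deeper cells hold more transcripts of every kind, and co-detection was therefore repeated in the 569 neutrophils that could be thinned to 1000 UMIs. In these, Ltf was detected in 0 of 13 cells with Elane and in 50.4% of the others, and Camp in 15.4% against 58.8%. Mmp8 was found in 4.55% of the 44 cells with Fcnb and in 69.3% of the others, and Mmp9 in 2.27% and 54.7%. Elane went with Prtn3 in 76.9% of its 13 cells. Mmp8, however, was found in 4 of the 13 cells with Elane (30.8%, against 65.1% of the others), more often than Camp or Ltf, and Mmp9 in 2 of 13. Of the 13 cells with Prtn3, 38.5% had Camp, 3 had Ltf, 1 had Mmp8 and none had Mmp9. At 500 UMIs per cell, Camp was found in 36.4% of 11 cells with Elane against 55.5% of the others, Ltf in 2 of 11 and Mmp8 in 0 of 11. The log2 odds ratio of Elane with Camp was thus 0.22 at full depth, -2.33 at 1000 UMIs and -0.93 at 500 UMIs. With 11 to 13 cells, the order of single genes among the cells with Elane could not be read from thinned counts.

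**Figure D3:**
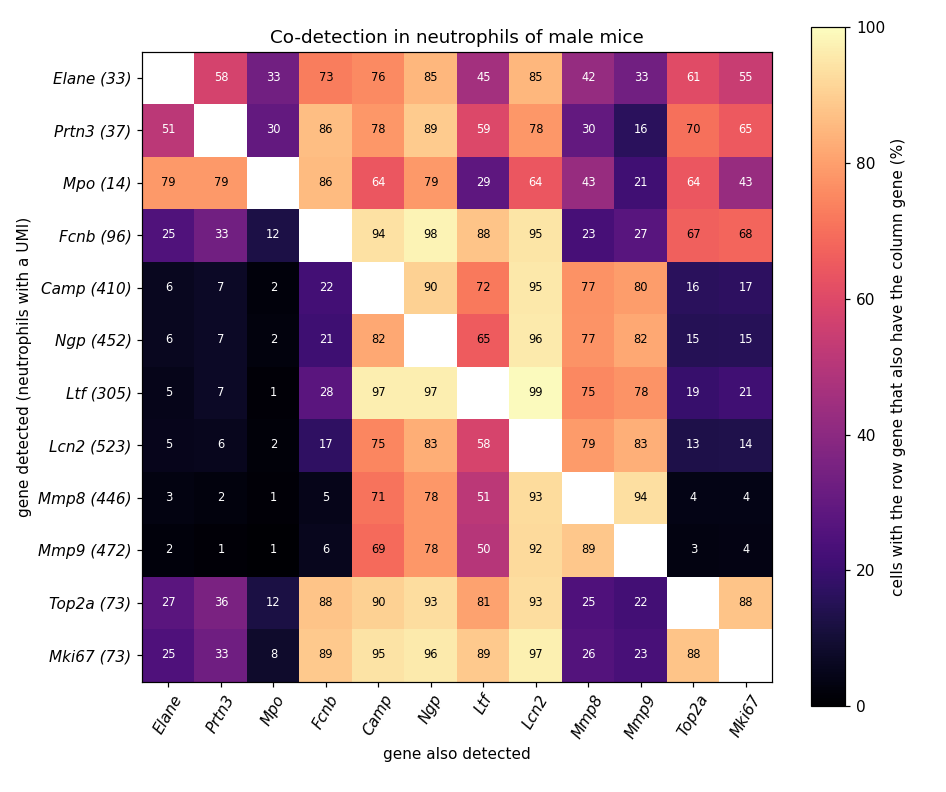
Share (%, color and number) of the neutrophils with a UMI of the row gene (number of cells in parentheses) that also had a UMI of the column gene, in 579 neutrophils of the male mice at full depth. Of the cells with Fcnb, 93.8% hold Camp and 22.9% hold Mmp8. Free RNA was not removed from the counts.

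The members were also placed along an axis that uses none of them, the share of a cell's UMIs in 10 late-maturation genes (Cxcr2, Csf3r, Il1b, Msrb1, Fpr1, Fpr2, Asprv1, Mxd1, Ccrl2 and Hcar2), which encode receptors and other products of mature neutrophils. The list was chosen with earlier results of these data known, and whether the share follows maturation alone was not tested. For each member the mean share was taken over cells, weighted by the member's CPM. Mpo, Prtn3, Elane and Fcnb came at 0.0738% ± 0.0267, 0.0746% ± 0.0277, 0.0768% ± 0.0346 and 0.0844% ± 0.00502 (SD, n = 3 mice), and did not differ beyond their spread. Camp (0.180% ± 0.0271), Ngp (0.191% ± 0.0266) and Ltf (0.202% ± 0.0222) followed and could not be told from each other by their spread, although their order was the same in each mouse. Lcn2 (0.389% ± 0.0479), Mmp8 (0.733% ± 0.0699) and Mmp9 (1.10% ± 0.0633) came later, each apart from the one before it by more than both SDs. Averaged over all cells, neutrophils had 1.01% ± 0.134.

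**Figure D4:**
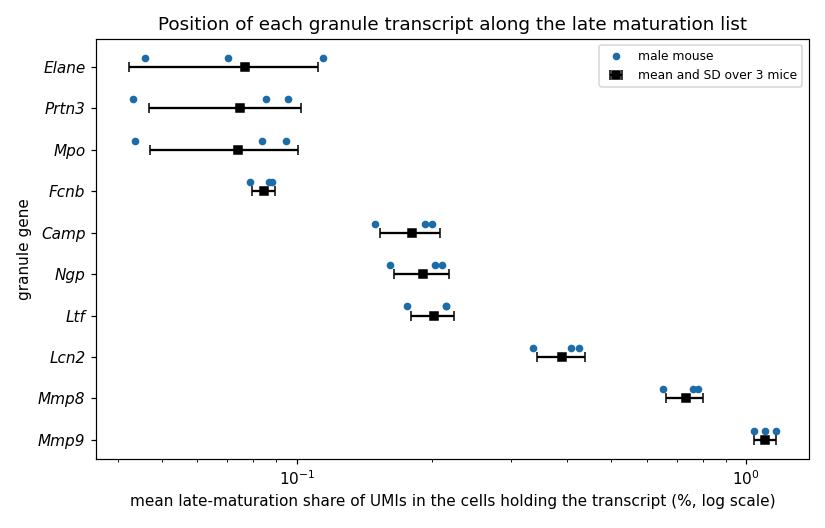
Weighted mean share of UMIs in the late-maturation list (%, log scale) for each granule gene; points are the 3 male mice, squares and bars the mean and SD. The members run from 0.0738% for Mpo to 1.10% for Mmp9, with Lcn2 between Ltf and Mmp8 in each mouse.

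When the neutrophils were cut into 5 bins of 115 or 116 cells along this axis, several members shared the bin of their highest CPM. This was the lowest bin for Elane, Prtn3, Mpo, Fcnb, Camp and Ngp. It was the next bin for Ltf and Lcn2, and the middle bin for Mmp8 and Mmp9. The bins cut the axis that gave the order, so they are not a second test of it. Elane stood at 1386 CPM in the lowest bin and at 7.71 CPM or less in each of the others. Fcnb was detected in 72.4% of cells of the lowest bin and in 6.90% of the next. Camp went from 49374 CPM in the lowest to 30132, 11123, 1855 and 201 CPM, and Lcn2 from 13771 to 14855, 9059, 4320 and 1890 CPM. Mmp8 was at 240 CPM in the lowest bin, 2527 in the next and 3391 in the middle bin, and then at 2538 and 1073 CPM. Mmp9 stayed between 804 and 1069 CPM in all bins but the lowest (94.8 CPM). Cell depth moved along the same axis, with median UMIs of 17786, 10465, 6576, 3915 and 2633 from the lowest to the highest bin, and its part in these levels was not tested.

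Most cells with primary-granule transcripts also had transcripts of dividing cells. Top2a (topoisomerase II alpha) and Mki67 (the antigen Ki-67) are made in dividing cells, and a UMI of either was found in 19 of 21 primary-granule cells (5 of 5, 3 of 4 and 11 of 12 in male mouse 1, 2 and 3). In secondary-granule cells the count was 56 of 291 and in remaining cells 7 of 267. Per mouse, 88.9% ± 12.7 of primary-granule cells and 11.3% ± 1.96 of other neutrophils had such a UMI (higher in 3 of 3 mice). Both shares come from the same 3 mice, and a 2-sided exact permutation test gave p = 0.25 with the mice as pairs and p = 0.1 without pairing, each the smallest that it allows. At 1000 UMIs per cell the shares were 48.3% ± 27.5 and 5.94% ± 1.56, with the same exact p-values. Both Camp-low (9 of 10) and Camp-high (10 of 11) primary-granule cells carried a cycling UMI. Top2a alone was detected in 1.87% of remaining neutrophils.

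Among secondary-granule cells of the male mice, cycling transcripts went with Fcnb, a division of the class that was made after the values had been seen and is given without a test. Of the 74 cells with a UMI of Fcnb, 49 had a UMI of Top2a or Mki67 (78.3%, 70.0% and 58.5% in male mouse 1, 2 and 3), against 7 of the 217 cells without Fcnb (0%, 2.70% and 4.62%). The cells with Fcnb were deeper (median 18762 against 9674 UMIs), and after thinning to 1000 UMIs the counts were 23 of 74 and 3 of 216 cells. Camp was higher with Fcnb (56855, 56602 and 51598 CPM per mouse) than without (27504, 28019 and 25667 CPM), and Ltf was near the same level (10554, 10194 and 10058 against 11457, 10340 and 8538 CPM). Mmp8 stood at 112, 0 and 267 CPM with Fcnb and at 2940, 2860 and 2591 CPM without, and Mmp9 at 58.4, 44.0 and 148 against 977, 799 and 828 CPM. Mmp8 was detected in 20.3% and 95.9% of these cells and Mmp9 in 33.8% and 97.2%. Ngp was higher with Fcnb as well (67901, 67362 and 61741 against 43286, 36265 and 36665 CPM). These values are a description of cells that also differ in depth, and how many of all genes differ in this way was not counted. In the female mice, 4 of 14 cells with Fcnb and 5 of 63 without had a cycling UMI, with none in female mouse 2. Female mouse 1 had 3 of 5 cells with Fcnb against 2 of 24 without. Female mouse 3 had 1 of 5 against 3 of 19, so the difference came mainly from female mouse 1.

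**Figure D5:**
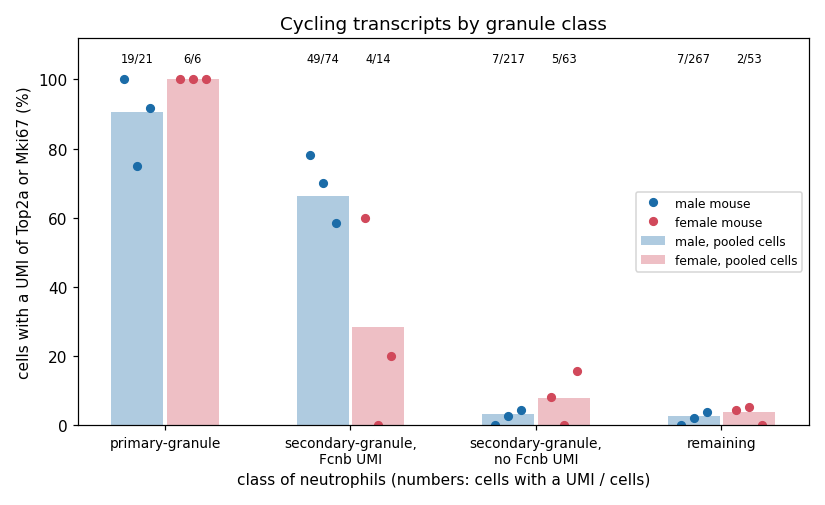
Share of neutrophils (%) with a UMI of Top2a or Mki67 in the primary-granule class, the secondary-granule class with and without a UMI of Fcnb, and the remaining class; bars are pooled cells, points are mice, and numbers are cells with a UMI over cells. In the male mice the share is 90.5% in primary-granule cells, 66.2% in secondary-granule cells with Fcnb and 3.23% in those without.

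In the test between classes, the 15 cycling genes of the fixed list were higher in secondary-granule than in remaining cells, and fewer differed between primary-granule and secondary-granule cells. All 15 were higher in secondary-granule than in remaining cells (23% of all genes were), with a median log2 fold of 6.49 against 0.05 over all genes. Mki67 was higher by 5.64 ± 0.62 (adjusted p = 2.70e-07). Top2a was higher by 5.58 ± 0.62 (adjusted p = 1.30e-05), a call that was lost without mouse 3 (adjusted p = 0.101). Between primary-granule and secondary-granule cells, 5 of 15 were higher (13% of all genes were) and 0 lower, with a median of 0.84 against -0.15. Neither Top2a (0.77 ± 0.37, adjusted p = 0.130) nor Mki67 (0.45 ± 0.33, adjusted p = 0.301) passed, although without mouse 1, with mouse 3 as the only primary-granule sum, both were under the threshold (adjusted p = 0.000116 and 0.0178). The count of higher genes was 2 of 15 without mouse 2 (whose sums entered in the other classes), and with 1 primary-granule sum it was 10 of 15 without mouse 1 and 1 of 14 without mouse 3. With primary-granule cells chosen by a share of 0.05% of UMIs, in place of 3 UMIs, the median of the list was -0.04.

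Other genes of the granule program were counted by group. The classes were cut from granule genes of the same cells, and the lists were chosen with earlier results of these data known. Counts of listed genes, here and in the paragraphs before and after, are thus descriptions and not independent evidence for the order. Of 9 other primary-granule genes tested, 4 were higher in primary-granule than in secondary-granule cells (Ctsg, Ms4a3, Prss57 and Cd63, the last not with the mouse as a block, adjusted p = 0.0690) and 2 were lower, Ctsd and Lyz2. Of all genes, 13% were higher in this comparison. Lyz2 (lysozyme, stored in all granule types) had a log2 fold of -1.28 ± 0.18 (adjusted p = 1.83e-05), and Serpinb1a, an inhibitor of elastase, -0.16 ± 0.22 (adjusted p = 0.602), which was 0.071 with RLE size factors. Of 13 other secondary-granule genes, 9 were lower in primary-granule cells and 0 higher, where 17.9% of all genes were lower. Among them, Pglyrp1 (a peptidoglycan-binding protein) had a fold of -1.31 ± 0.20 (adjusted p = 2.73e-05) and Hp (haptoglobin) of -0.99 ± 0.21 (adjusted p = 0.000916, and 0.0969 with a fold of -0.51 without mouse 3). Of 8 genes of tertiary granules and secretory vesicles, 5 were lower, with Itgam, the integrin chain CD11b, at -2.06 ± 0.27 (adjusted p = 6.95e-06) and its partner Itgb2 at -1.23 ± 0.24 (adjusted p = 0.000405).

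Between secondary-granule and remaining cells, 9 of the 13 other secondary-granule genes were higher in secondary-granule cells and 0 lower, where 23% of all genes were higher. The same limit holds for these counts, since Camp, Ngp and Ltf define the class. Pglyrp1 was higher by 0.88 ± 0.17 (adjusted p = 0.000183), while Hp, at -0.32 ± 0.18, did not pass (adjusted p = 0.141, and 0.0387 without mouse 3). Of the other primary-granule genes, 5 of 9 were higher, including Serpinb1a by 4.16 ± 0.26 (adjusted p = 4.06e-11) and Lyz2 by 0.95 ± 0.16 (adjusted p = 4.15e-05), and 2 were lower. Of the tertiary and secretory group, Itgam was higher by 0.84 ± 0.21 (adjusted p = 0.00202), 4 of 8 were lower (22% of all genes were), and Itgb2 did not pass (0.06 ± 0.19, adjusted p = 0.829). The late-maturation genes were lower in 9 of 10 cases, with Msrb1 at -1.97 ± 0.18 (adjusted p = 1.33e-08) and Ccrl2 at -4.22 ± 0.53 (adjusted p = 0.000805, and 0.0721 without mouse 3). In the same direction, 8 of these 10 genes were lower in primary-granule than in secondary-granule cells (17.9% of all genes were). Fpr1 and Fpr2 are on this list and on that of tertiary granules and secretory vesicles, so they count as lower in both lists in this comparison. Fpr1 does so between secondary-granule and remaining cells as well. Msrb1 had a fold of -1.36 ± 0.22 (adjusted p = 7.27e-05) while Ccrl2 did not pass (-1.91 ± 0.77, adjusted p = 0.113). Ccrl2 passed with the mouse as a block (-1.61, adjusted p = 0.000661), without mouse 2 (adjusted p = 0.0415) and, with 1 primary-granule sum, without mouse 1 (adjusted p = 2.38e-06). Asprv1 passed with the block as well (adjusted p = 0.00755 against 0.232), so that 10 of the 10 late-maturation genes did.

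Transcription factors of the lineage were tested as a list of 9. Cebpe stood at 703 and 428 CPM in primary-granule cells of mouse 1 and 3, at 379, 327 and 320 CPM in secondary-granule cells and at 14.9, 16.2 and 27.3 CPM in remaining cells, and was higher in secondary-granule than in remaining cells by 4.12 ± 0.30 (adjusted p = 2.55e-10). Gfi1, a repressor required for neutrophil development, was at 0 in the remaining cells of each mouse and at 7.96 to 11.1 CPM in secondary-granule cells (adjusted p = 0.00213, and 0.0790 without mouse 3). Between primary-granule and secondary-granule cells neither passed, with an adjusted p of 0.937 for Cebpe and 0.0553 for Gfi1, and the latter ranged from 0.0131 to 0.380 over the alternatives. Cebpb, the factor of later myeloid stages, was lower in primary-granule than in secondary-granule cells (-1.23 ± 0.24, adjusted p = 0.000424) and lower in secondary-granule than in remaining cells (-2.31 ± 0.21, adjusted p = 5.90e-09). Klf2 had folds of -1.74 ± 0.44 (adjusted p = 0.0118, and 0.0666 with a fold of -0.76 without mouse 3) and -1.41 ± 0.32 (adjusted p = 0.00435) in the same comparisons. Cebpe and Gfi1 were singled out after their values had been seen.

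In primary-granule over secondary-granule cells, the 5 genes with the highest fold were Cst7, Dlg2, Ctsg, Nkg7 and Gstm1, of which Cst7 and Dlg2 had 0 UMIs in secondary-granule cells. Ctsg (cathepsin G, another protease of the primary granule) stood at 815 and 577 CPM in primary-granule cells of mouse 1 and 3 and at 4.44, 0 and 1.40 CPM in secondary-granule cells (log2 fold 7.66 ± 0.38, adjusted p = 1.44e-12). The 5 lowest were Mmp9 itself, Stfa2l1, 1700047M11Rik, Prkab1 and Il1f9, all with 0 UMIs in the primary-granule sums (the call of Stfa2l1 was lost without mouse 3, adjusted p = 0.277). In secondary-granule over remaining cells the highest were Rrm2, Ccnb2, Lbp, Cenpf and Ccna2, all except Lbp genes of DNA replication or mitosis, and the lowest were Steap4, Ifit1, Fgl2, Il1b and Ptgs2. Il1b, the inflammatory cytokine, was at 75.5, 125 and 105 CPM in secondary-granule and 3680, 4126 and 3432 CPM in remaining cells (-4.96 ± 0.22, adjusted p = 1.04e-13).

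Over the 579 cells, the genes most like each group were named by the Pearson correlation of log2(CPM + 1) among 7009 genes, as a description of cells that share a lane, mice and differences in depth. The sum of Elane, Prtn3 and Mpo was most like Nkg7 (r = 0.62), Ctsg (0.61), Ramp1 (0.59), Ms4a3 (0.54) and Cdk4 (0.52). The sum of Camp, Ngp, Ltf and Lcn2 was most like Adpgk (0.71), Cd177 (0.70), Serpinb1a (0.69), Cybb (0.67) and Chil3 (0.67). The sum of Mmp8 and Mmp9 was most like Retnlg (0.68), S100a6 (0.61), S100a11 (0.55), Sh3glb1 (0.54) and Arg2 (0.51). Between members, r was 0.74 for Elane with Prtn3, 0.76 for Elane with Mpo, 0.83 for Camp with Ltf and 0.67 for Mmp8 with Mmp9, and -0.69 for Fcnb with Mmp9.

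Outside neutrophils the members fell into 2 kinds. The secondary and tertiary genes and Fcnb were 69.0 to 492 times higher in neutrophils than in the other cells (pooled CPM), whereas the ratio was 11.9 for Elane, 9.98 for Prtn3 and 4.24 for Mpo. Against B and T cells alone, which should lack all 10, the ratios were 183, 120 and 39.8 for these genes, and 195 to 366 for the others. In those cells the ratios rest on 4 UMIs of Elane, 6 of Prtn3, 4 of Mpo, 1 of Fcnb, 7 of Mmp8 and 4 of Mmp9, so they are rough. In the 260 B and T cells the members with the most UMIs were Ngp (128 CPM, in 46.2% of cells), Camp (87.3 CPM, 35.0%), Lcn2 (31.9 CPM, 15.4%) and Ltf (19.7 CPM, 10.0%). Because cells were chosen by S100a8 and S100a9, these ratios are descriptions.

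Most primary-granule UMIs outside neutrophils sat in a small set of cells, which were chosen here by these same UMIs. The part of free RNA in the other such UMIs was not tested. In the male mice 41 cells (13, 4 and 24 per mouse) had 3 or more UMIs of Elane, Prtn3 and Mpo but S100a8 and S100a9 at or under 0.455% of UMIs, and they held 93.9% of the primary UMIs of non-neutrophils and 26.6% of those of all cells. All 41 were under the cutoffs that define the macrophage, B and T cell classes here. Elane was at 1181, Prtn3 at 1320 and Mpo at 716 CPM in these cells, and Mpo was thus nearer to its level in primary-granule neutrophils (1416 CPM) than the proteases were to theirs (6507 and 6369 CPM). Fcnb was at 71.5 CPM, Camp at 30.0 CPM, under its level in B cells (83.6 CPM), and Mmp9 was found in 1 cell. Mmp8, in contrast, was found in 22 of the 41 cells at 68.6 CPM, against 6 of 21 cells at 56.9 CPM in primary-granule neutrophils.

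These S100-low cells were deep (median 17276 UMIs), and 68.3% of them had a UMI of Top2a or Mki67. They carried the monocyte markers Ly6c2 (1324 CPM, 33 cells), F13a1 (736 CPM, 33 cells), Ccr2 (593 CPM, 35 cells) and Plac8 (all 41 cells), and Irf8 (393 CPM, 33 cells). Gfi1 was at 0 in all 41, which allows up to 7.32% of cells with a UMI (not of cells expressing it, since it is low where it is found), and was detected in 9 of the 21 primary-granule neutrophils. Basophil genes (Mcpt8 and Prss34) came from 3 cells. The female mice had 12 such cells, 4 in each mouse, of which 83.3% had a cycling UMI.

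Female and male mice were compared over all neutrophils of a mouse. Elane stood at 1709, 1002 and 1303 CPM in female mouse 1, 2 and 3 and Prtn3 at 1567, 787 and 1203 CPM, and each of these values lay above those of all 3 male mice. This held for 3.61% of the 3763 genes tested, and edgeR called neither gene (Elane log2 fold 1.15 ± 0.29, adjusted p = 0.728; Prtn3 1.08 ± 0.26, adjusted p = 0.641), although DESeq2 called both (adjusted p = 0.000884 for each). Mpo (336, 93.0 and 283 CPM) and the other 7 members overlapped between the sexes. Mki67 was lower in all females (40.9, 58.1 and 26.6 CPM) than in all males (103, 90.5 and 64.0 CPM), as 7.68% of genes were (adjusted p = 0.576). In all, 0 of the 10 members were called by edgeR, where 6 of all genes were (0.159%, or 0.0531% higher and 0.106% lower in females) and 201 genes had an unadjusted p under 0.05. Without female mouse 2, edgeR called Prtn3 (1.31, adjusted p = 0.000340) and Mpo (1.29, adjusted p = 0.00664).

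The female values rest on 6 primary-granule cells (2, 3 and 1 per mouse), and in female mouse 3 the only such cell had Camp at 59.5 CPM and Lcn2 at 0. The shares of classes were 4.33% ± 1.97, 57.3% ± 6.71 and 38.4% ± 5.18 in the female mice. Between the sexes, exact 2-sided permutation tests gave p = 0.8, 0.2 and 0.1 for the primary-granule, secondary-granule and remaining share, with 0.1 the smallest possible. Whether the difference between secondary-granule and remaining cells depended on sex was tested as an interaction, which called 0 of 2568 genes with edgeR (118 at an unadjusted p under 0.05). The female primary-granule cells had no UMI of Mmp8 or Mmp9, and Mmp8 (2053 CPM) and Mmp9 (641 CPM) were present in the female secondary-granule cells.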

How the data were processed

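CD45+DAPI- DRG cells were hashtagged, run in 1 lane of the 10× 3′ v3 assay and processed by the authors with Cell Ranger (mm10). The authors deposited raw UMI counts of 2668 cells, kept by gene number (between 200 and 5000), by a mitochondrial share below 5% and by hashtag (HTODemux, Seurat). They also deposited unfiltered counts of 4395 barcodes with 6 hashtags, assigned to mice in the labels. The same steps (Seurat 5.3.0, positive quantile 0.99) left 3741 cells, whose 2668 male cells are the deposited ones, with 0 differing entries.

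CPM are UMIs of a gene over all UMIs of a sum of cells, per 1e+06. Sums per mouse and class (5 or more cells, 8 class-defining genes left out) were TMM-normalized, filtered with filterByExpr and tested with edgeR 4.0.16 (quasi-likelihood, robust), with Benjamini-Hochberg adjustment at 0.05. The SE beside a fold is the absolute log2 fold divided by the square root of the F statistic, an approximation that need not match the p-value. DESeq2 1.42.0 was an alternative, and the test was tested on simulated data. Intervals and limits for counts of 0 (3 counts) cover counting error only. The neutrophil sums held 300847 to 3093400 UMIs per mouse, and p-values measure the spread between mice of 1 lane. Doublets were scored with Scrublet (scanpy 1.11.5). Members, classes and gene lists were chosen with earlier results of these data known. Named genes are the members, up to 4 genes of a list (those with the most UMIs, Top2a and Mki67 always) and the 5 largest folds in each direction; Cebpe, Gfi1 and the genes of called counts were named after their values were seen. Same-numbered classes come from the same mouse, and deviations from the class means correlated at 0.0282, -0.0545 and -0.109 (mouse 1, 2 and 3, secondary-granule with remaining, 4309 genes).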

Additional observations from a re-analysis of the deposited data

How the results depend on the processing

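The share of primary-granule cells (3.73%) was 4.36% at 2 UMIs, 3.25% at 5 UMIs, 3.00% at 0.05% of UMIs and 4.33% in female mice. The secondary-granule share (50.2%) was 55.6% at a cutoff of 0.2%, 46.3% at 1% and 57.3% in female mice. The median ratio of members in neutrophils over other cells (131) was 305 against B and T cells, where Elane, Prtn3, Mpo, Fcnb, Mmp8 and Mmp9 had few UMIs. The cycling share of primary-granule cells (88.9%) was 48.3% after thinning. Along the late-maturation axis, 6 to 9 pairs of neighboring members kept their order over the alternatives, and 8 when a mouse was left out.

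Genes called between primary-granule and secondary-granule cells (1329) were 812 with DESeq2 and 547 in female mice with no minimum of cells, an alternative added after seeing the data (2, 3 and 1 cells left no fit with the minimum). Leaving out a mouse gave 469 (without mouse 3) to 1400 (without mouse 1), both with 1 primary-granule sum that is assumed to vary like the other groups, and the mouse as replicate block 1150. The share of these calls that were higher was 42.1%, and 56.6% with RLE size factors, which moved the median fold by 0.22. Between secondary-granule and remaining cells (1937) 402 were called in female mice, 1474 to 1736 without a mouse and 1831 with the block. Without the neutrophils at the C1q cutoff of macrophages, 2073 were called, and 9 of the 10 late-maturation genes were again lower in secondary-granule cells. Between the sexes (6) there were 24 with no filter, 3 at a neutrophil cutoff of 0.5% and at 2%, 0 in remaining cells and 3 to 16 without a mouse (16 without male mouse 1 and 3 without male mouse 2, female mouse 1 or female mouse 3).

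Signs turned only for folds that did not pass in the main fit, given here on the log2 scale. Of these, Hp passed without mouse 3 and Mki67 was under the threshold without mouse 1, as given above. Mmp8 between secondary-granule and remaining cells became 0.091 with no filter, 0.048 and 0.047 at a neutrophil cutoff of 0.5% and 2%, 0.024, 0.043 and 0.046 at primary cutoffs of 2 UMIs, 5 UMIs and 0.05%, 0.41 at a secondary cutoff of 0.2% and 0.41 in female mice (-0.090 to 0.087 without a mouse). Hp became 0.0077 in female mice. Between primary-granule and secondary-granule cells, Cebpe became -0.24 with no filter, -0.18 at 5 UMIs and -0.76 at 0.05% (-0.26 to 0.54 without a mouse), and Mki67 was -0.47 to 0.98 without a mouse. Serpinb1a became 0.070 with DESeq2, 0.071 with RLE, 0.26 at 2% of S100a8 and S100a9, 0.045 at 2 UMIs, 0.028 at 0.2% and 0.12 with no minimum of cells (-0.28 to 0.078 without a mouse). Between the sexes, Camp became 0.033 at 2% and 0.048 in remaining cells, and Fcnb 0.023 at 2%. Without a mouse, Camp ranged from -0.13 to 0.063, Fcnb from -0.29 to 0.23, Lcn2 from -0.071 to 0.17, Ltf from -0.0038 to 0.20 and Ngp from -0.017 to 0.20. The cause was not tested. The 21 primary-granule cells limit the precision. Among listed genes, the replicate block changed 5 calls between primary-granule and secondary-granule cells (Stmn1, Cd63 and Cybb lost, Asprv1 and Ccrl2 gained), 0 between secondary-granule and remaining cells, and no call of a member. For the cycling share (88.9%), the paired test with the mouse as block was added after seeing the data.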
